A study of Mus musculus with 18 samples.

Results

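Trp63 is the mouse gene for p63 (gene ID 22061), and its miRNA contacts in cultured mouse keratinocytes were read here from chimeric reads of CLEAR-CLIP. In this assay Argonaute 2 is precipitated after crosslinking, the miRNA is ligated to the RNA it sits on, and each sequenced chimera names a miRNA and a target position. A read was given to Trp63 when the midpoint of its target part lay in the RefSeq span of the gene, chr16:25683763-25892088 on mm10, which is 208326 bases long. By this rule 646 of 1153545 chimeric reads lay on Trp63 (0.0560%), 1 of 17378 named genes with reads. Counting each combination of position, strand and miRNA once in a pool left 580 chimeras, with 97 miRNA names. All 646 target parts were on the plus strand and wholly inside the span, their median length was 39 bases, and the 5000 bases on either side of the span held 0 reads. Exons, introns and UTRs of the gene were not analysed here, so each position is given by its distance to the ends of the span, with the end taken in the direction of the reads.

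The 18 libraries came in 2 sets, all from keratinocytes kept in E-low calcium medium. Set 1 had 6 control libraries of cells with K14-Cre only, a Cre recombinase under the keratin 14 promoter of basal keratinocytes, and 3 libraries of miR-200 double knockout (DKO) cells. Set 2 had 3 libraries of miR-200 inducible cells that were not induced, 3 of miR-200 DKO cells, and 3 of the inducible cells after 24 hours with 3 ug/ml doxycycline. The labels do not give the animals or lines behind the libraries. Each group is deposited as 1 pool in which libraries cannot be told apart, so a group was 1 sample, no test between groups was possible, and every interval below covers counting error only. The pools held from 48662 (set 1 DKO) to 419117 (set 2 induced) reads. The sets differ in sequencing run as well as in control cells, and values are compared within a set. Of 10 keratinocyte marker genes, 9 or 10 had reads in each pool, at 0.352% to 0.610% of reads in sum, with Krt15 at 0 in 4 pools. The list includes Trp63 itself, with 44 of the 569 marker reads in set 1 control and 226 of the 1578 in set 2 uninduced. The fibroblast, melanocyte, immune and endothelial lists held at most 0.0103% of a pool each, and Col1a1, Col3a1, Dct, Ptprc and Cdh5 were at 0 in all pools.

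p63 is a transcription factor of the p53 family that sets up and maintains stratified epithelia; basal keratinocytes mainly make the ΔN form, read from an internal promoter of the gene, while the TA form starts further upstream. miR-203 is known as a skin miRNA that becomes abundant when keratinocytes leave the basal layer and that represses p63, and this pair is a textbook case of a miRNA limiting the proliferative potential of epidermal cells. The miR-200 family, known for repressing the EMT factors Zeb1 and Zeb2, is also abundant in epidermis. A miRNA finds its targets mainly through its seed, the bases near its 5′ end.

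The miRNAs below are those on which the deepest Trp63 positions turn, given 5′ to 3′ as RefSeq holds them for GRCm38.p6, with the seed (bases 2 to 8) in capitals. Of the 97 names on Trp63, 80 matched a RefSeq entry.
The miRNA of the deepest position, alone with its seed among the matched names on Trp63, comes first.
miR-203-3p: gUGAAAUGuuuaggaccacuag
The next are the leading miRNAs of the second position that matched RefSeq, which share a seed.
miR-130a-3p: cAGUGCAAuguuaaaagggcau
miR-301a-3p: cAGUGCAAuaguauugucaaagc
The miR-30 miRNAs that lead the third position share another.
miR-30a-5p: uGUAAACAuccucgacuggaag
miR-30c-5p: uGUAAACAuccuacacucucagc
miR-30e-5p: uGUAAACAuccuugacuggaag
The miR-200 family, which the study removed or induced, has a seed for miR-141 and miR-200a and another for miR-200b, miR-200c and miR-429.
miR-141-3p: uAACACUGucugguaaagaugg
miR-200a-3p: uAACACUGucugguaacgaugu
miR-200c-3p: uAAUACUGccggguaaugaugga
The last pair are the single name with the most Trp63 chimeras after miR-203-3p and a rare miRNA with a position of its own.
miR-31-5p: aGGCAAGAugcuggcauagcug
miR-7210-3p: uUAUAUGUaaguaacaauguggcu

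Trp63 was among the genes most often found in chimeras in set 2 and less prominent in set 1. It had 44 reads in the set 1 control pool, 23 in set 1 DKO, 226 in set 2 uninduced, 147 in set 2 DKO and 206 in set 2 induced. Its share was 0.0272% (95% interval 0.0198 to 0.0365) in set 1 control and 0.0473% (0.0300 to 0.0709) in set 1 DKO. In set 2 it was 0.0720% (0.0629 to 0.0820) without induction, 0.0700% (0.0591 to 0.0823) in DKO and 0.0492% (0.0427 to 0.0563) after induction. The uninduced and DKO pools of set 2 were the highest and their intervals overlapped widely, while the induced pool lay below both without overlap. By read number Trp63 stood at rank 84 of 12795 genes in the uninduced pool, 108 of 11599 in set 2 DKO, 197 of 13531 in the induced pool, 244 of 7019 in set 1 DKO and 604 of 10753 in set 1 control. A share of chimeras depends on the amount of the target RNA and of its miRNAs as well as on their contact, the RNA level of Trp63 was not measured here, and in a pool fewer cells that make p63 and less p63 RNA per cell cannot be told apart.

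**Figure D1:**
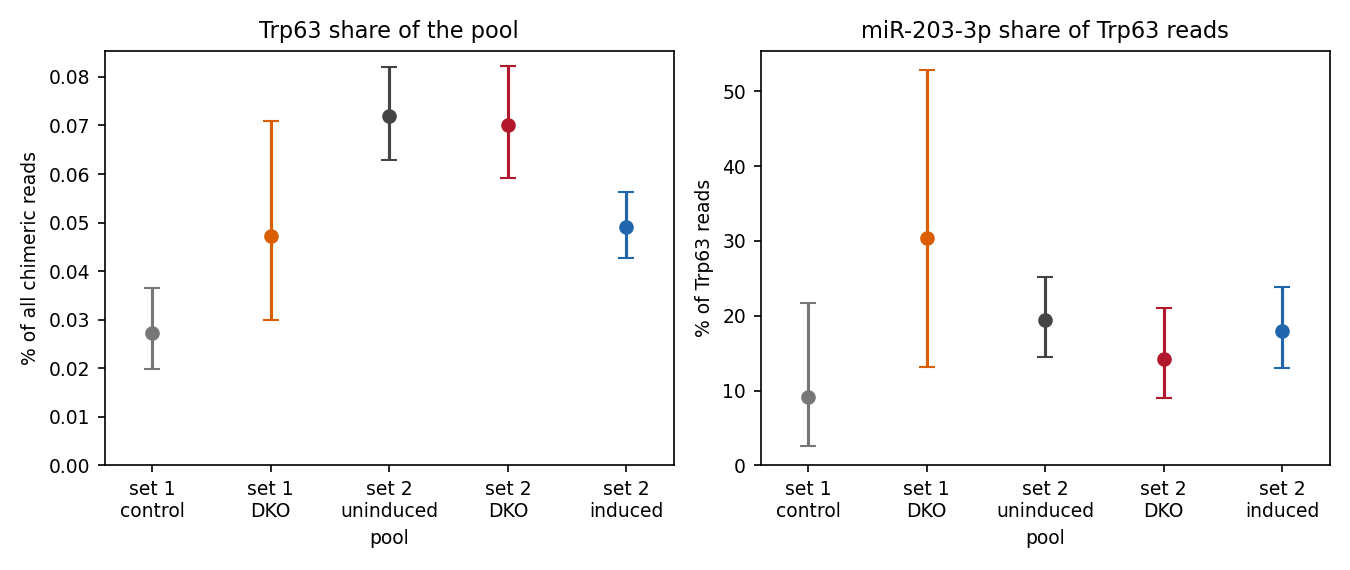
Left, the share of all chimeric reads of each pool that lay on Trp63 (%), and right, the share of the Trp63 reads that carried miR-203-3p (%); points are the 5 pools and bars the exact 95% counting intervals. The induced pool of set 2 (0.0492%) lies below the uninduced (0.0720%) and DKO (0.0700%) pools of its set, and miR-203-3p made up 9.09% to 30.4% of the Trp63 reads.

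Induction of miR-200 went with a lower Trp63 share. The share after induction was 0.683 times that without it (interval 0.563 to 0.829), which falls short of the 1.5-fold lower value that 8.59% of genes reached. The interval lay below 1, as it did for 4.06% of the 5323 genes with at least 20 reads in the 2 pools, and 9.56% of these genes had a lower ratio than Trp63. Among genes with at least 200 reads, a limit chosen after the values were seen, 2.26% had a lower ratio. The median ratio over all 5323 genes was 1.03. The ratio was close to this value in both stretches of the gene and with miR-203-3p or the miR-200 family left out: it was 0.681 (0.505 to 0.916) in the last 2600 bases of the span, 0.685 (0.528 to 0.887) before them, 0.693 (0.559 to 0.859) without miR-203-3p and 0.712 (0.581 to 0.873) outside the miR-200 family. Each of these intervals lay below 1. Single miRNAs went either way: miR-205-5p had 10 Trp63 reads without induction and 0 after it, whereas miR-27a-3p had 5 and 16 and miR-23a-3p had 4 and 8.

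The values for loss of miR-200 are given by set; no difference between the sets was tested. In set 2 the DKO share was 0.973 times the uninduced share (0.785 to 1.20), an interval that includes 1. In this comparison 13.9% of 4470 genes had an interval above 1 and 13.1% an interval below 1. In set 1 the DKO share was 1.74 times the control share (1.00 to 2.94), on 23 and 44 reads. Of the 2172 genes compared in set 1, 18.6% were at least 1.5-fold higher in DKO, 7.97% had an interval above 1 and 9.58% an interval below 1, with a median ratio of 0.880. The set 1 ratio came from the end of the gene. In the last 2600 bases 14 DKO and 11 control reads gave a ratio of 4.23 (1.78 to 10.3), and before them 9 DKO and 33 control reads gave 0.906 (0.381 to 1.94). Without miR-203-3p the set 1 ratio was 1.35 (0.704 to 2.46), and counting each chimera once it was 1.52 (0.855 to 2.61), so that both intervals included 1.

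miR-203-3p was the leading partner of Trp63 over all pools together, although in set 1 control miR-205-5p had 5 Trp63 reads against its 4. It had 4 of 44 Trp63 reads in set 1 control, 7 of 23 in set 1 DKO, 44 of 226 in set 2 uninduced, 21 of 147 in set 2 DKO and 37 of 206 in set 2 induced. These are 9.09%, 30.4%, 19.5%, 14.3% and 18.0% of the Trp63 reads, whereas miR-203-3p made up 0.617% to 1.84% of the pools. miR-203-3p reads lay on Trp63 more often than the reads of other miRNAs of the pool, 16.1 times as often in set 1 control (4.18 to 44.5), 23.3 in set 1 DKO (8.11 to 59.9), 17.2 in set 2 uninduced (12.1 to 24.1), 14.9 in set 2 DKO (8.91 to 23.8) and 22.3 in set 2 induced (15.2 to 32.0). All 5 intervals overlap. With each chimera counted once the ratio was 11.3 (7.39 to 16.7) in set 2 uninduced and 14.1 (8.78 to 21.8) in set 2 induced. By the same measure the interval lay above 1 for 2.92%, 8.48%, 4.98%, 3.35% and 4.71% of the genes compared in these pools. Counted once, Trp63 had 83 of the 11707 miR-203-3p chimeras (0.709%), second of 3704 genes to Neat1, a long noncoding RNA of nuclear paraspeckles, with 150.

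Nearly all of these contacts fell on the same spot close to the end of the gene. Of 113 miR-203-3p reads on Trp63, 108 (95.6%, 90.0 to 98.5) lay at chr16:25891325-25891387, 4 in set 1 control, 6 in set 1 DKO, 43 in set 2 uninduced, 19 in set 2 DKO and 36 in set 2 induced. They carried 62 different barcodes, and 6 of them recurred, barcode included, in another pool of their set. All 108 share the 16 bases chr16:25891345-25891360, which end 728 bases before the end of the span. Their first bases were not scattered: 40 reads began at 25891339, 30 at 25891333 and 18 at 25891329, together 81.5% of them, while the last bases varied more, with 28 reads ending at 25891387, 17 at 25891366 and 13 at 25891382. The 5 other miR-203-3p reads lay at 4 other positions of the gene. Over the whole series the 78 chimeras of this spot are the deepest of 8176 miR-203-3p positions, 6757 of which held 1 chimera. The next deepest, on Thbd (thrombomodulin), held 55, and Neat1 spread its 150 chimeras over 59 positions with at most 19 each.

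**Figure D2:**
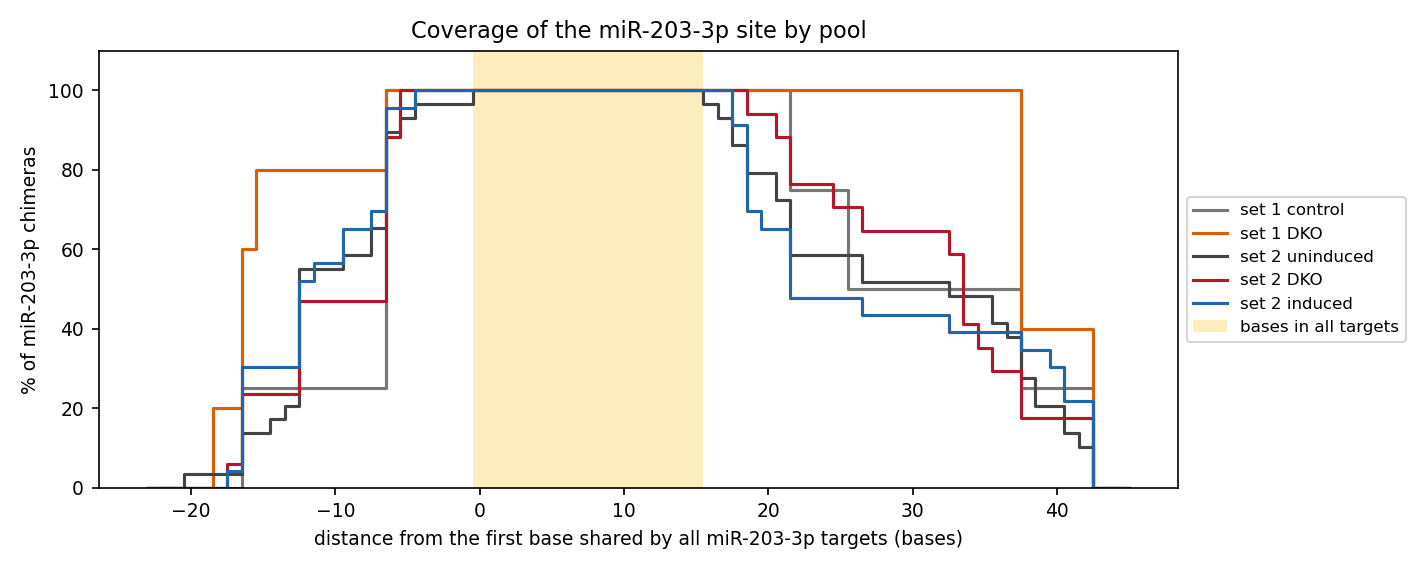
Share of the miR-203-3p chimeras of each pool at the deepest Trp63 position that cover each base (%), against the distance in bases from the first base that all of them share; lines are the 5 pools and the shaded band is the 16 bases present in all 108 reads. All pools reach 100% in the same band, from 4 chimeras in set 1 control to 29 in set 2 uninduced, and differ in how far the targets run past it.

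Set against the miRNA's own reads, the miR-203-3p position held less than 1% in each pool. It had 0.401% (0.109 to 1.02) of the miR-203-3p reads in set 1 control, 0.670% (0.246 to 1.45) in set 1 DKO, 0.990% (0.717 to 1.33) in set 2 uninduced, 0.818% (0.493 to 1.27) in set 2 DKO and 0.885% (0.621 to 1.22) in set 2 induced, and all these intervals overlap; the differences were not tested. Over all Trp63 positions, miR-203-3p on Trp63 per read of the pool was 0.630 times as frequent after induction as without it (0.396 to 0.998), and per miR-203-3p read it was 0.898 times as frequent (0.564 to 1.42). In set 1 the DKO pool had 5.81 times the control share (1.48 to 27.1) on 7 and 4 reads, and 1.95 times per miR-203-3p read (0.496 to 9.08). The set 2 DKO ratio was 0.714 (0.403 to 1.23) per read of the pool and 0.893 (0.504 to 1.53) per miR-203-3p read. The other arm, miR-203-5p, had 1 chimera on Trp63, near the end of the gene.

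The miR-203-3p targets lie within a longer stretch of overlapping targets, chr16:25891266-25891535, which held 99 chimeras of 17 miRNAs. miR-203-3p made up 78.8% of them, and the next names, miR-205-5p and miR-21a-5p, had 3 each. This stretch had chimeras in all 5 pools (6, 6, 40, 21 and 26 in the order above).

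A second position 2290 bases before the end of the span was shared by several miRNAs. At chr16:25889658-25889798 there were 67 chimeras of 21 miRNAs, 1 in each pool of set 1 and 27, 20 and 18 in the uninduced, DKO and induced pools of set 2. miR-130a-3p and miR-467a-5p had 14 each, miR-301a-3p 11 and miR-467d-5p 5. Targets of these 4 miRNAs all contain the same 20 bases, chr16:25889715-25889734, and all 14 miR-130a-3p chimeras of the gene were here. As the sequences above show, miR-130a-3p and miR-301a-3p share the seed AGUGCAA.

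Further positions near the end of the gene were led by other families. At chr16:25889881-25889952 there were 18 chimeras, from 1 in each set 1 pool to 7 in the induced pool, of which miR-30a-5p and miR-30e-5p had 4 each, miR-30c-5p 3 and miR-30d-5p 2. No base is common to all targets of the miR-30 names there. At chr16:25891064-25891219 miR-669o-3p had 10 of 15 chimeras. That position had 4 chimeras in set 1 DKO, 4 in set 2 uninduced and 7 in set 2 induced, and 0 in set 1 control and set 2 DKO.

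**Figure D3:**
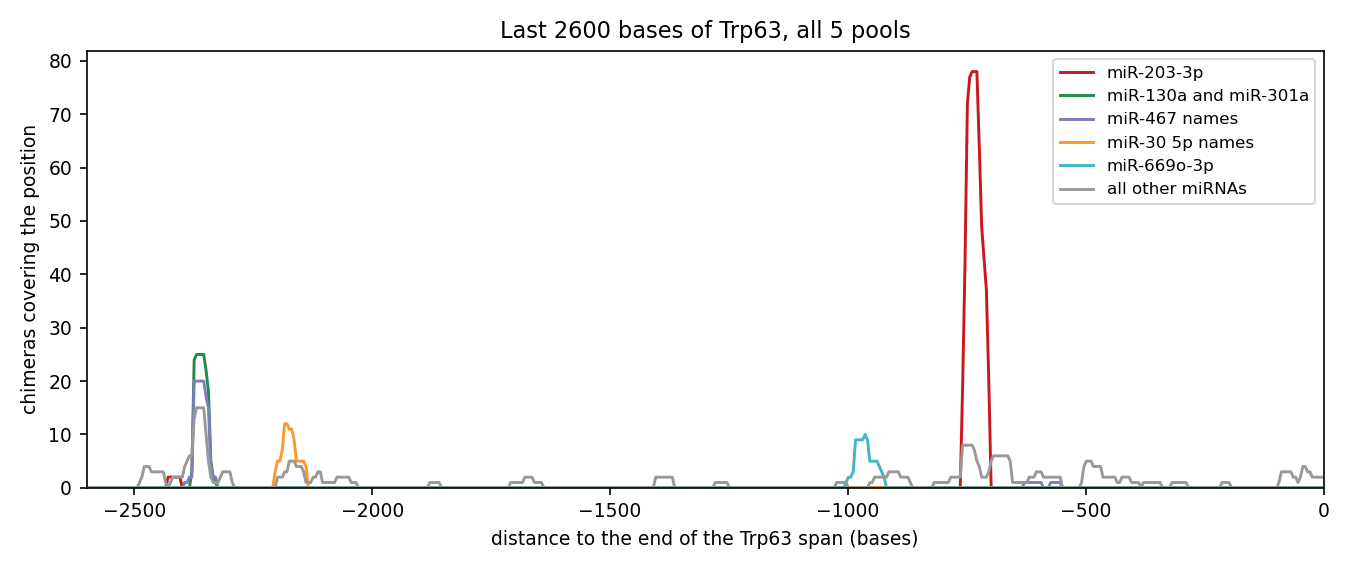
Number of chimeras of all 5 pools covering positions in the last 2600 bases of Trp63, in steps of 5 bases, against the distance to the end of the span (bases); lines are groups of miRNAs. miR-203-3p reaches 78 chimeras around 728 bases before the end, the miR-130a, miR-301a and miR-467 names meet at the second position, and most of the stretch between the peaks holds few chimeras.

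The end of Trp63 held far more chimeras per base than the rest of the span. The last 2600 bases, 1.25% of the span, held 230 of 580 chimeras (39.7%), or 88.5 chimeras per kb. Of these 80 were miR-203-3p, and of the 497 chimeras of other miRNAs 150 (30.2%) lay there too. By pool the share of chimeras in the last 2600 bases was 25.6% (13.5 to 41.2) in set 1 control, 57.1% (34.02 to 78.2) in set 1 DKO, 40.7% (33.8 to 47.9) in set 2 uninduced, 39.4% (31.2 to 48.1) in set 2 DKO and 40.0% (32.8 to 47.6) in set 2 induced. The 3 pools of set 2 were close to each other, set 1 control was lowest and set 1 DKO highest, and all 5 intervals overlap. The limit of 2600 bases was set after the positions had been seen.

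The other end of the gene was nearly empty. The first 110 kb, 52.8% of the span, held 1 chimera, of miR-18a-5p at chr16:25777052-25777076, which begins 93289 bases into the span. Between this stretch and the last 2600 bases there were 3.65 chimeras per kb. The segment from 140 to 160 kb held 144 chimeras of 51 miRNAs at 76 positions, and the segments on either side of it, from 120 to 140 kb and from 160 to 180 kb, held 83 and 68.

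**Figure D4:**
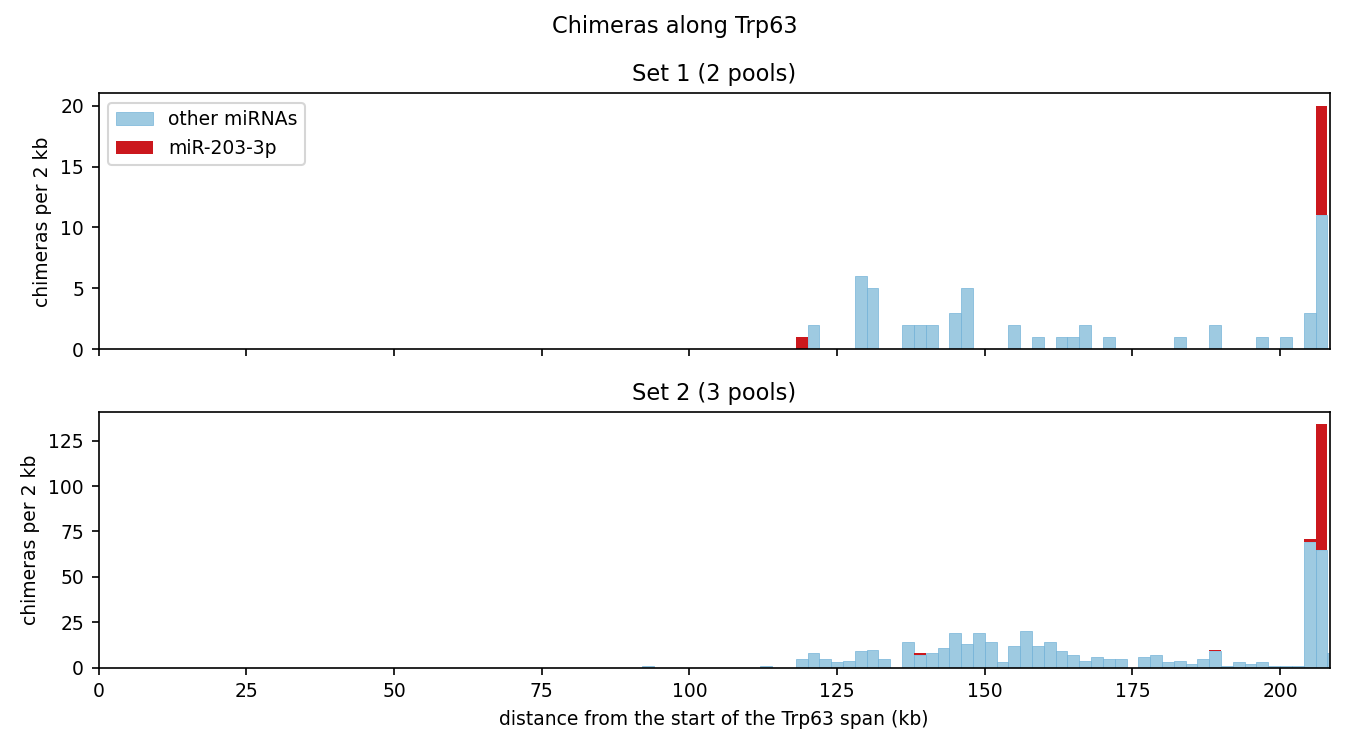
Chimeras per 2 kb along Trp63 against the distance from the start of the span (kb), set 1 above and set 2 below, with different vertical scales; red is miR-203-3p and blue all other miRNAs. Both sets are nearly empty over the first 110 kb and peak at the end of the span, where almost all miR-203-3p chimeras lie.

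Away from the end, most positions were shallow. The 580 chimeras fell into 227 positions, groups of targets that overlap by at least 1 base; 152 of them held 1 chimera, 20 were found in both sets and 5 in all pools. Of the 18 with at least 5 chimeras, 6 lay in the last 2600 bases, and these 18 held 295 chimeras (50.9%). The deepest position before the last 2600 bases, chr16:25838683-25838759, held 11 chimeras of 8 miRNAs, with miR-141-3p (3) and miR-200a-3p (2) in the lead. Of its 7 miR-141-3p and miR-200a-3p reads, the uninduced pool had 6, the induced pool 1 and either DKO pool 0.

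A rare miRNA had a position to itself. All 9 chimeras at chr16:25812874-25812953 were of miR-7210-3p, with 1 in set 1 control, 2 in set 1 DKO, 1 in set 2 uninduced, 3 in set 2 DKO and 2 in set 2 induced. They share their first 25 bases, chr16:25812874-25812898, and Trp63 held 11 of the 340 miR-7210-3p reads of the series (3.24%). From its pool shares 0.154 chimeras were expected on Trp63, against 9 observed. Of the 8 chimeras at chr16:25873011-25873088, 7 were of miR-31-5p and share 17 bases. That position had 2 chimeras in each pool except set 1 DKO, which had 0. At chr16:25814253-25814348 let-7 names made up 5 of 9 chimeras. The remaining positions among the 10 deepest, chr16:25828098-25828152 and chr16:25829914-25830025, held 7 chimeras each, as did chr16:25832575-25832657, which ties with them, and no miRNA had more than 2 there.

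Each miRNA on Trp63 was set against an expected number, taken from its share of the chimeras on other genes of the same pool. The names with the most chimeras made up 52.2% of the total with 12 names. Of 93 miRNAs with at least 1 chimera expected, 10 had an interval above the expected number (10.8%) and 4 an interval below it (4.30%). miR-203-3p had 83 chimeras against 7.44 expected, a ratio of 11.2 (8.89 to 13.8). miR-130a-3p had 14 against 1.89 (7.40, 4.05 to 12.4), miR-301a-3p 12 against 2.64 (4.54, 2.35 to 7.94), miR-669o-3p 12 against 3.20 (3.75, 1.94 to 6.54) and miR-467a-5p 20 against 6.12 (3.27, 2.00 to 5.05). The others above their expected number were miR-30e-5p (4.56), miR-101b-3p (4.20), miR-30a-5p (3.14), let-7i-5p (2.91) and miR-467d-5p (2.88), on 5 to 7 chimeras each.

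Abundant keratinocyte miRNAs had about the expected number of chimeras on Trp63 or fewer. The expected numbers are shares of all 580 Trp63 chimeras, so the 83 of miR-203-3p lower the ratio of every other name. Ratios with miR-203-3p left out were not computed. miR-31-5p, which is known for high levels in activated keratinocytes, had 39 chimeras against 55.7 expected (0.700, 0.498 to 0.956) at 28 positions. miR-23a-3p had 13 against 23.1 (0.563, 0.300 to 0.963) at 13 positions. Without reads that recur in another pool of their set, the intervals of miR-31-5p (0.541 to 1.04) and miR-23a-3p (0.320 to 1.03) included 1. With every read counted, that of miR-23a-3p included 1 (0.412 to 1.13), while those of miR-31-5p (0.465 to 0.880) and miR-21a-5p (0.349 to 0.783) lay below 1. miR-27a-3p (28 chimeras, ratio 0.9402), miR-21a-5p (25, 0.726), miR-205-5p (22, 1.07), miR-125b-5p (19, 0.845) and miR-200c-3p (16, 1.30) had intervals that include 1. By seed, the 9 names with the let-7 seed, miR-98-5p among them, had 41 chimeras against 40.9 expected (1.00, 0.720 to 1.36). The AGUGCAA seed had 26 against 4.59 (5.67, 3.70 to 8.30). The seed GUAAACA of miR-30a-5p, miR-30c-5p and miR-30e-5p had 17 against 6.86 (2.48, 1.44 to 3.97). Not in that sum are 2 other miR-30 names: miR-30d-5p had 2 chimeras against 1.43 expected and miR-30b-5p 0 against 1.69. Below their expected number by seed were also AAAGUGC, with 10 chimeras, all of miR-17, miR-20a and miR-106b, against 19.9 for all names with that seed (0.503, 0.241 to 0.926), and AGCACCA of the miR-29 names, with 6 against 15.3 (0.391, 0.143 to 0.851). miR-3470b and miR-706, which are abundant in set 1, had 0 and 1 chimeras against 5.76 and 6.78 expected.

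**Figure D5:**
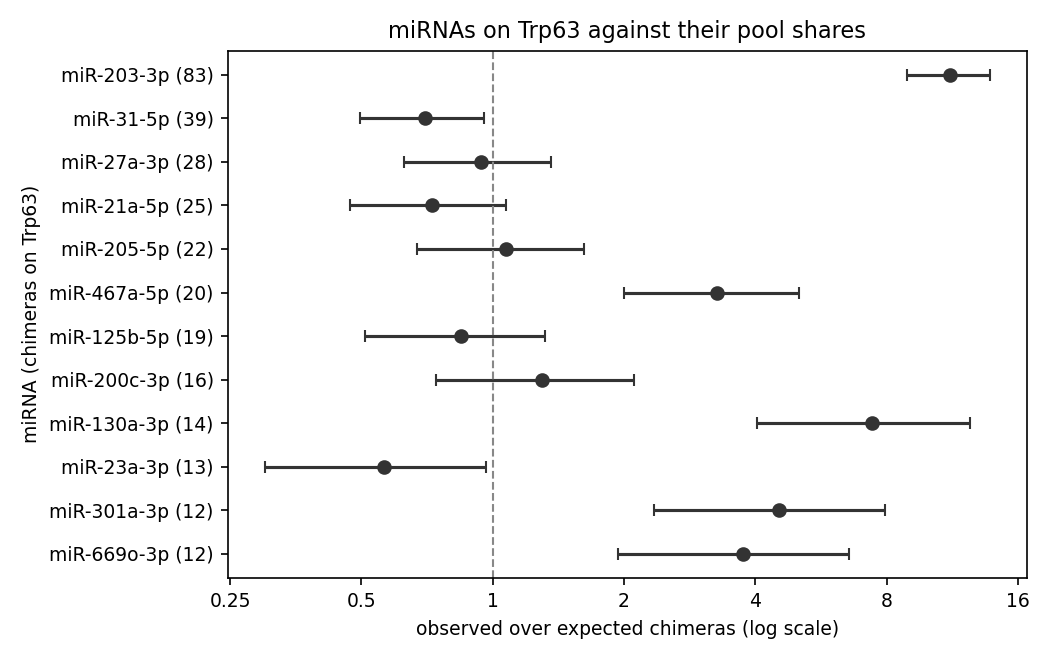
Chimeras observed on Trp63 over the number expected from each miRNA's share among other genes (log scale), for the 12 miRNAs with the most chimeras, whose number stands in brackets; bars are exact 95% counting intervals and the dashed line is a ratio of 1. miR-203-3p lies at 11.2 and miR-130a-3p at 7.40, while miR-31-5p and miR-23a-3p lie below 1.

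A few of these miRNAs varied between pools. miR-205-5p, a miRNA of basal keratinocytes, had 5 of 44 Trp63 reads in set 1 control, 2 of 23 in set 1 DKO, 10 of 226 in set 2 uninduced, 6 of 147 in set 2 DKO and 0 of 206 in set 2 induced. A count of 0 allows a share of up to 1.46% of the induced Trp63 reads, and miR-205-5p made up 2.24% of that whole pool. miR-27a-3p had 5 Trp63 reads in the uninduced pool (2.21%, 0.722 to 5.09) and 16 in the induced pool (7.77%, 4.505 to 12.3). Its pool share was 4.03% and 3.83%. miR-669o-3p had 5 of the 23 reads in set 1 DKO and 0 of the 147 in set 2 DKO. These were the differences between pools singled out after the values of the 12 names had been seen.

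The miR-200 family had 41 of the 580 Trp63 chimeras, as many as the names with the let-7 seed, and they were spread thinly. It had 2 Trp63 reads in set 1 control, 0 in set 1 DKO, 23 in set 2 uninduced, 1 in set 2 DKO and 18 in set 2 induced. These are 4.55%, 0%, 10.2%, 0.680% and 8.74% of the Trp63 reads. For the 0 in set 1 DKO, the limit of 3 counts is 13.0% and the exact interval reaches 14.8%. The single DKO read of set 2 recurs with its barcode in another pool of the set. Relative to other miRNAs, the family met Trp63 1.58 times as often in the uninduced pool (0.982 to 2.44) and 0.964 times as often in the induced pool (0.559 to 1.56). Per read of the family, the induced pool had 0.433 times the uninduced value (0.220 to 0.839), although the family made up 9.04% of the induced and 6.68% of the uninduced pool. Outside the family the ratio was also below 1, at 0.712 (0.581 to 0.873), and these intervals overlap. By seed, miR-141 and miR-200a had 13 of 23 reads without induction and 5 of 18 after it, a split that was not tested. Of these miR-141 and miR-200a reads, 6 and 1 lay at the position chr16:25838683-25838759. The 41 chimeras of the family lay at 28 positions, 21 of them with a single miR-200 chimera, and 9 lay in the last 2600 bases. miR-200c-3p had 16 of them, miR-141-3p 11, miR-200b-3p 7, miR-200a-3p 5, and miR-429-3p 2.

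Of 21 miRNAs cited in the field as acting on p63 or its network, 6 had chimeras on Trp63. miR-203 (both arms) had 84 and miR-130a 14, against 7.59 and 1.90 expected. miR-205 had 22 (20.6 expected), miR-30a 5 (1.79), miR-92a 3 (3.88) and miR-34a 3 (1.61). The other 15, miR-302a to miR-302d, miR-130b, miR-20b, miR-124, miR-223, miR-196a, miR-574, miR-34c, miR-138, miR-181a, miR-181b and miR-455, were in the files, had 0 chimeras on Trp63, and had fewer than 1 expected each, so that this depth could not have shown a shortfall.

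The high miR-203-3p share set Trp63 apart from most genes compared. Among 2225 genes with at least 100 chimeras, 14.3% of the Trp63 chimeras were of miR-203-3p against a median of 0.943%, and 7 genes had a higher share. These were Prdx3 (26.2%), Arpc2 (21.4%), Tbc1d12 (18.6%), Ubr1 (15.45%), Snai2 (15.3%), Golph3 (14.7%) and Hnrnpul2 (14.4%), each with 102 to 190 chimeras. Snai2 encodes the EMT factor Slug. The genes nearest to Trp63 in miRNA makeup, by the summed smaller share over all miRNA names, were Tmcc3 (0.653), Neat1 (0.653), Pard3 (0.643), Rbms1 (0.641) and Efna5 (0.639), where the median gene had 0.484. These genes held from 528 (Tmcc3) to 12215 (Neat1) chimeras, and the measure was not adjusted for depth. Of these, Tmcc3 had 9.09% miR-203-3p chimeras and the others 1.20% to 2.32%.

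Other genes of the p63 pathway are given by list; both comparisons of set 2 share the uninduced pool. Of 7 genes of the p53 family and its inhibitors, 6 had enough reads in the induced comparison. Mdm4, an inhibitor of p53, was at 1.42 (1.10 to 1.86). It was the only 1 of the 6 with an interval above 1, where 4.60% of all genes had one. An interval below 1 was found for 0 of the 6, where 4.06% of all genes had one. The median ratio of the 6 was 1.14 against 1.03 over all genes. In set 1, Mdm2, the ubiquitin ligase of p53, had 46 control and 30 DKO reads, a ratio of 2.17 (1.32 to 3.51), 1 of 2 genes measured, where 7.97% of all genes had an interval above 1. Trp53bp2, which binds p53 family proteins, was at 1.58 (0.784 to 3.19) in set 2 DKO, where 0 of 5 intervals excluded 1. In that comparison 13.9% of all genes had an interval above 1 and 13.1% an interval below 1.

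All 13 genes for p63 turnover with reads were measured after induction, and 0 had an interval that excluded 1. Of all genes 4.60% had an interval above 1 and 4.06% an interval below 1. The median ratio was 1.12 on the list against 1.03 over all genes. In set 2 DKO, 1 of 9, the p63 ligase Itch, had an interval above 1 (13.9% of all genes had one), and in set 1 it was 0 of 5 (7.97%). Of 20 partners and chromatin factors, 14 were measured in set 2. After induction 1 of the 14 had an interval below 1, where 4.06% of all genes had. It was Ovol1, a zinc finger transcription factor of differentiating epidermis, at 0.312 (0.133 to 0.677). In set 2 DKO 1 of 14 had an interval above 1 and 1 an interval below 1, where 13.9% and 13.1% of all genes had one. These were Runx1 at 1.48 (1.26 to 1.74) and Tfap2a at 0.349 (0.180 to 0.632), both transcription factors that act beside p63. In set 1, 0 of 7 partners had an interval that excluded 1, where 7.97% of all genes were above and 9.58% below.

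The p63 targets of the epidermis are adhesion, keratin and signalling genes for the most part. In set 2 DKO 12 of 30 had an interval above 1 and 4 an interval below 1 (13.9% and 13.1% of all genes), with a median of 1.19 against 1.01 over all genes. Col17a1, a hemidesmosomal collagen, had 171 uninduced and 241 DKO reads, a ratio of 2.11 (1.73 to 2.58), and Dsp, a desmosomal plaque protein, 146 and 175 reads, a ratio of 1.79 (1.43 to 2.25). Perp (0.880, 0.728 to 1.06), a desmosomal protein, and Dst (1.22, 0.968 to 1.52), a hemidesmosomal linker, had intervals that include 1. After induction 2 of 31 had an interval above 1 (Cldn1, Skp2) and 4 an interval below 1 (Col17a1, Igfbp3, Krt14, Pthlh). Of all genes 4.60% and 4.06% had one, and the median ratio was 0.974 on the list against 1.03. In set 1 DKO 5 of 22 had an interval above 1 and 1 an interval below 1, where 7.97% and 9.58% of all genes had one. The median ratio there was 1.17 on the list against 0.880. miR-203-3p made up 1.76% of the chimeras on the p53 family list, 0.989% on the turnover list, 0.587% on the partners and 1.18% on the targets, against 1.24% over all chimeras and 14.3% on Trp63.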

How the data were processed

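Per the file headers and values, the deposited tables hold positions, another unit than counts or signals: an entry stands for a chimeric read and gives the start, end and strand of its target on mm10, a barcode and a miRNA name. Per the submitters' processing notes cutadapt, Novoalign and bedtools were used with mm10, with no versions given; the sources used here do not give how amplified copies were collapsed. From these positions, reads were assigned by midpoint to RefSeq gene spans (GRCm38.p6) with pandas 2.3.3 and Python 3.11.15. Shares have exact Clopper-Pearson 95% intervals, ratios conditional exact intervals, and observed over expected chimeras exact Poisson intervals (scipy 1.17.1); the ratio calls were tested on simulated data. PCR reads are not independent molecules, so all intervals cover counting error only, and the limit given for a share at 0 is 3 counts, a rounder and lower bound than the exact interval's. Genes needed at least 20 reads in the 2 pools compared. The miRNAs named are the 12 with the most chimeras, both miR-203 arms, the miR-200 guide arms and cited names with a chimera; the 10 deepest positions, the 5 genes of nearest miRNA makeup and the 3 deepest genes of each list are named, others where an interval excluded 1 or a named position led to them; 1 gene of the partner list is not reported here. The gene, its miRNAs and all lists were chosen with earlier results of these data known. Genome sequence and exons were not used here.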

Additional observations from a re-analysis of the deposited data

Results flagged for a closer look

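For 3 values the Trp63 ratio of the DKO pool to the control pool was above 1 in set 1, with an interval above 1, and below 1 in set 2, with an interval that includes 1; the difference between the sets was not tested, since each group is 1 pool. For all miRNAs the DKO over control ratio was 1.74 (1.00 to 2.94) in set 1 and 0.973 (0.785 to 1.20) in set 2. For miR-203-3p on Trp63 it was 5.81 (1.48 to 27.1) in set 1, on 7 and 4 reads, and 0.714 (0.403 to 1.23) in set 2. For the last 2600 bases of the span it was 4.23 (1.78 to 10.3) in set 1 and 0.900 (0.641 to 1.26) in set 2. Of the set 2 values, that for all miRNAs rises above 1 in 3 alternatives. The control cells and the sequencing run differ between the sets, and their part in these values cannot be told apart.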

How the results depend on the processing

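Of 98 alternative values, 86 kept their direction and lay close to the value reported, 11 moved and 1 reversed. The reversed value was the set 1 DKO over control share ratio of Trp63, 0.906 before the last 2600 bases of the span, an alternative added after the data were seen. Its interval also included 1 with each chimera counted once (1.52, 0.855 to 2.61), without miR-203-3p (1.35) and without 9 miRNAs abundant in set 1 (1.66, 0.948 to 2.84). The ratio after induction had its interval below 1 in every alternative run, from 0.673 to 0.712. The set 2 DKO ratio had an interval that includes 1 in every alternative run and ranged from 0.958 to 1.03, above 1 without miR-203-3p, without the miR-200 family and before the last 2600 bases. Counting each chimera once, the ratio of miR-203-3p to other miRNAs on Trp63 was 11.3 in set 2 uninduced and 14.1 in set 2 induced; counting every read, miR-203-3p on Trp63 was 15.3 times the expected number. With at least 3 or 10 chimeras instead of 5, Trp63 had 32 or 5 positions. Genes past 1.5-fold went from 1086 to 2149 with at least 10 reads and 287 with at least 50 in set 1, from 1945 to 3090 and 830 in set 2 DKO, and from 1061 to 2111 and 316 after induction, as more or fewer genes were compared. No paired analysis was possible because each group is deposited as 1 pool without library names; leaving out each replicate was not run for the same reason, nor was the gene strand alone, since all Trp63 reads lay on 1 strand and the tables used give no strand for genes. Depth limits set 1 most, with 23 Trp63 reads in its DKO pool.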

Other observations

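Of the 93 miRNAs with at least 1 chimera expected, 20 had 0 on the gene. Most had few expected and intervals that reach above 1, such as miR-103-3p (3.02 expected) and miR-93-5p (2.58 expected). miR-3470b had 5.76 expected.

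The start of the last 2600 bases held a position led by miR-151-3p alone, chr16:25889595-25889657, with 4 chimeras in 3 pools of both sets, against 0.712 expected over the gene. A position of miR-3473d alone, chr16:25813014-25813042, just behind the miR-7210-3p position, held 4 chimeras in 3 pools.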
